A study of Bos taurus with 6 samples.

Results

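The genes described here encode 10 enzymes and helper proteins that modify, fold, trim and crosslink collagen: P4HA1, P4HA2, P4HA3, PLOD1, PLOD2, LOX, LOXL1, LOXL2, SERPINH1 and BMP1. They were taken from the expression table by gene name, and all 10 were found among its 17663 genes. The question was how the level of each differed between bovine fetal fibroblasts (bEFs) that carried the fat-1 transgene (FT) and those of wild-type cattle (WT).

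The study set FT cells beside WT cells to learn how a transgenic desaturase alters energy metabolism and DNA methylation. FT cells were cultured from 3 fetuses carrying exogenous fat-1, a nematode gene whose product turns n-6 into n-3 polyunsaturated fatty acids, and WT cells from 3 wild-type Luxi cattle fetuses. All fetuses were 50–60 days old. Tissue left after removal of head, limbs, organs and bones was digested, and the cells were cultured and passaged. The passage used for RNA is not given in the sources used here. Each fetus gave 1 poly(A) RNA library, so n = 3 per group (FT_1 to FT_3 and WT_1 to WT_3). The promoter that drives fat-1 and the breed of the FT fetuses are not given in the sources used here, so the transgene and differences between fetuses of separate origin cannot be told apart. The transgene and the sex chromosomes were not analysed here.

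Collagen chains are modified in the endoplasmic reticulum before they fold. Prolyl 4-hydroxylases hydroxylate prolines, which stabilises the triple helix, lysyl hydroxylases hydroxylate lysines that later carry sugars or enter crosslinks, and the chaperone encoded by SERPINH1 holds the folded helix until it leaves the compartment. Outside the cell the protease encoded by BMP1 removes the C-propeptide and also activates lysyl oxidase, and the lysyl oxidases then oxidise lysines so that fibrils become covalently crosslinked.

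The total count per library was 63366834, 48167642 and 54204446 in FT_1 to FT_3 and 69777641, 51310741 and 54271927 in WT_1 to WT_3. FT_1 stood apart from the other FT libraries. The median absolute log2 difference of a gene was 0.39 between FT_1 and FT_2 and 0.40 between FT_1 and FT_3. It came to 0.12 for FT_2 against FT_3 and to 0.13–0.17 for pairs of WT libraries. A share of 22.3% of genes differed more than 2-fold between FT_1 and FT_2, against 4.87% between FT_2 and FT_3. Fold changes, family shares and ratios to the summed collagens are therefore given with and without FT_1. Counts were compared between FT and WT cells with edgeR's quasi-likelihood test after scaling by the trimmed mean of M-values (TMM), and a gene was called at a Benjamini-Hochberg adjusted p under 0.05 over all 13482 tested genes.

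Markers of cell types were summed as FPKM (fragments per kilobase of a gene, relative to library size) in each library. All 10 fibroblast markers had at least 1 FPKM in every library. Their summed level was 6828, 17047 and 16783 FPKM in FT_1 to FT_3 and 17821, 17272 and 17359.8 in WT_1 to WT_3. Vimentin (VIM) was the most abundant, at 1244, 3850 and 4171 FPKM in FT_1 to FT_3 and 7891, 8178 and 7312 FPKM in WT_1 to WT_3. The markers did not move together. FT_1 was the lowest library for the sum and VIM but the highest for PDGFRA and THY1. Of the 10 markers 1, PDGFRA, was called higher and 0 lower (all tested genes 20.1% and 18.9%). At an unadjusted p under 0.05 in edgeR 1 marker was lower, as was 1 each in DESeq2 and limma (all tested genes 16.9% and 29.2% lower). Without FT_1, 5 were called higher and 1 lower, beside 30.6% and 31.5% of all tested genes.

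Of 8 epithelial markers, 7 had at least 1 FPKM in FT_1, 4 in FT_2 and FT_3 and 1 in each WT library. Their summed level was 442, 16.2 and 15.8 FPKM in FT_1 to FT_3 and 10.3, 7.92 and 14.2 in WT_1 to WT_3. The most abundant was the basal keratin KRT5, at 172 FPKM in FT_1, 2.57 in FT_2, 1.63 in FT_3 and a count of 0 in every WT library, as also for EPCAM, KRT8, KRT18 and KRT14. KRT5 was thus far higher in FT_1 than in FT_2 and FT_3, which in turn were above WT. CLDN4 was even over the FT libraries, at 3.65, 3.39 and 3.82 FPKM in FT_1 to FT_3 and 0.20, 0.09 and 0.33 FPKM in WT_1 to WT_3. Of 6 tested epithelial markers 1, CLDN4, was called higher with FT_1 and 5 were called higher without it (all tested genes 20.1% and 30.6%). Their part in the results for FT_1 was not tested.

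Of 6 smooth muscle markers, of which 4 had at least 1 FPKM in every WT library, 5 were called, each as higher in FT cells (all tested genes 20.1%). Their summed level was 2488.5, 3758 and 3619.6 FPKM in FT_1 to FT_3 and 1095, 1076 and 1201 FPKM in WT_1 to WT_3. Smooth muscle actin (ACTA2), which cultured fibroblasts can also express, was the most abundant at 1372, 2421 and 2378 FPKM in FT_1 to FT_3 and 549.8, 503 and 627 FPKM in WT_1 to WT_3. All but MYH11 were higher in all 3 FT libraries, as were 6 of the 10 enzyme genes below. Their part in those results was not tested.

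The remaining marker lists were at low levels apart from mesothelin (MSLN). The 5 mesothelial markers in the table summed to 210.1, 45.0 and 46.3 FPKM in FT_1 to FT_3 and 2.34, 3.54 and 3.38 FPKM in WT_1 to WT_3. MSLN, a surface protein of the mesothelium, made up most of it. It had 199, 44.9 and 46.2 FPKM in FT_1 to FT_3 and 2.08, 3.18 and 3.06 FPKM in WT_1 to WT_3. At least 1 FPKM was reached by 4 of the 5 markers in FT_1 and by 1 in each other library. UPK1B, BNC1 and UPK3B stood at 8.86, 1.52 and 1.03 FPKM in FT_1 and at 0.25 FPKM or less in every other library. The mesothelial gene WT1 had a count of 0 in all 3 FT libraries and 0.03–0.05 FPKM in the WT libraries. The summed levels ran from 0.47 to 1.52 FPKM for 6 endothelial markers (highest PECAM1) and from 3.56 to 8.06 FPKM for 5 blood cell markers (highest CD14). They ran from 0.03 to 2.05 FPKM for 3 skeletal muscle markers (highest MYF5), from 6.03 to 17.7 FPKM for 6 cartilage and bone markers (highest RUNX2), from 3.60 to 6.52 FPKM for 6 adipocyte markers (highest LEP) and from 1.28 to 3.80 FPKM for 3 neural markers (highest TUBB3). PTPRC, HBM, LRRN4, MYOD1, MYOG, PAX7, COL9A1, IBSP, SOX10 and ELAVL4 were not analysed here. In RNA from whole cultures, fewer cells of a type and less RNA per cell cannot be told apart.

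All 10 enzyme genes passed the filter on low counts. Of these, 6 were called higher in FT cells (PLOD1, PLOD2, LOX, LOXL1, LOXL2 and BMP1), 0 were called lower and 4 were not called (P4HA1, P4HA2, P4HA3 and SERPINH1). Over all tested genes, 2714 (20.1%) were called higher and 2547 (18.9%) lower. The count of 0 lower members was also 0 at an unadjusted p under 0.05 in edgeR and 0 in DESeq2, and it was 1 (P4HA2) in limma on log2(FPKM + 1). The median log2 fold change was 0.63 over the 10 enzyme genes, beside 0.03 over all tested genes, and 0.60 beside −0.02 without FT_1. Without FT_1, 7 were called higher, 2 lower and 1 neither, against 30.6% and 31.5% of 13765 tested genes.

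The cutoff in the study's methods asks for a log2 fold change above 1 in size at an unadjusted p under 0.05. It was passed by LOXL1 and LOXL2, both higher in FT cells, and by 0 members lower in FT cells. Over all tested genes 1378 (10.2%) passed it as higher and 1208 (8.96%) as lower. Without FT_1 it was passed by 3 members and 23.3% of all tested genes, and with scaling by library totals alone by 1 member and 19.7%. Without WT_3 it was likewise passed by 1 member, beside 17.0% of all tested genes.

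For 6 members the lowest FT value in FPKM exceeded the highest WT value, and for 1 member, P4HA2, the highest FT value was under the lowest WT value. Among all tested genes such separation was seen in 21.8% (FT higher) and 36.9% (FT lower). Without FT_1 the numbers were 7 and 2 members, beside 29.6% and 47.6% of all tested genes.

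The choice of scaling moved all genes together. With library totals alone the median over all tested genes, as a log2 fold change, was −0.12 in place of 0.03, and 37.6% of called genes were higher in FT cells in place of 51.6%. Relative to the median, LOXL2 was 1.60 higher under either scaling and PLOD1 0.37. The 6 called members kept their direction and their call under the RLE, upper-quartile and library-total scalings. P4HA3 was −0.03 on the log2 scale with library totals alone and 0.13 with TMM. Relative to the median it was 0.08 and 0.09 higher, so only its sign against 0 turned with the scaling.

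**Figure D1:**
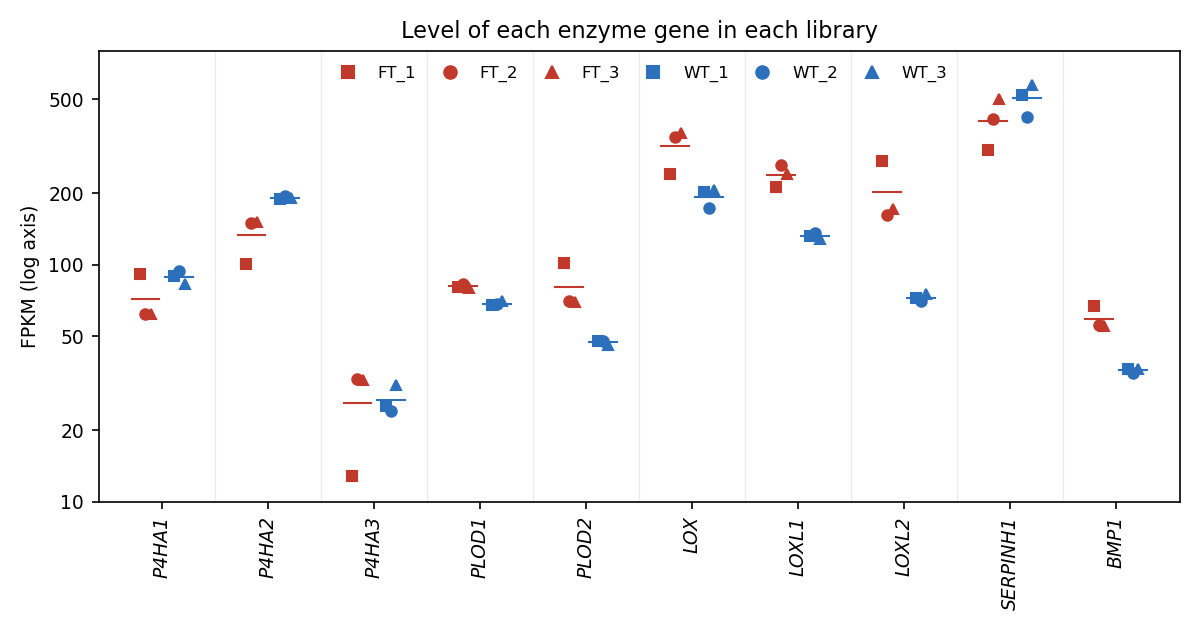
Level of the 10 enzyme genes in FPKM on a log axis, 1 point per library (red, FT; blue, WT; squares, circles and triangles, replicates 1, 2 and 3), with lines at the group means. LOXL2 is at 162–273 FPKM in FT against 70.5–75.2 FPKM in WT cells, and FT_1 lies apart from FT_2 and FT_3 in most genes.

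**Figure D2:**
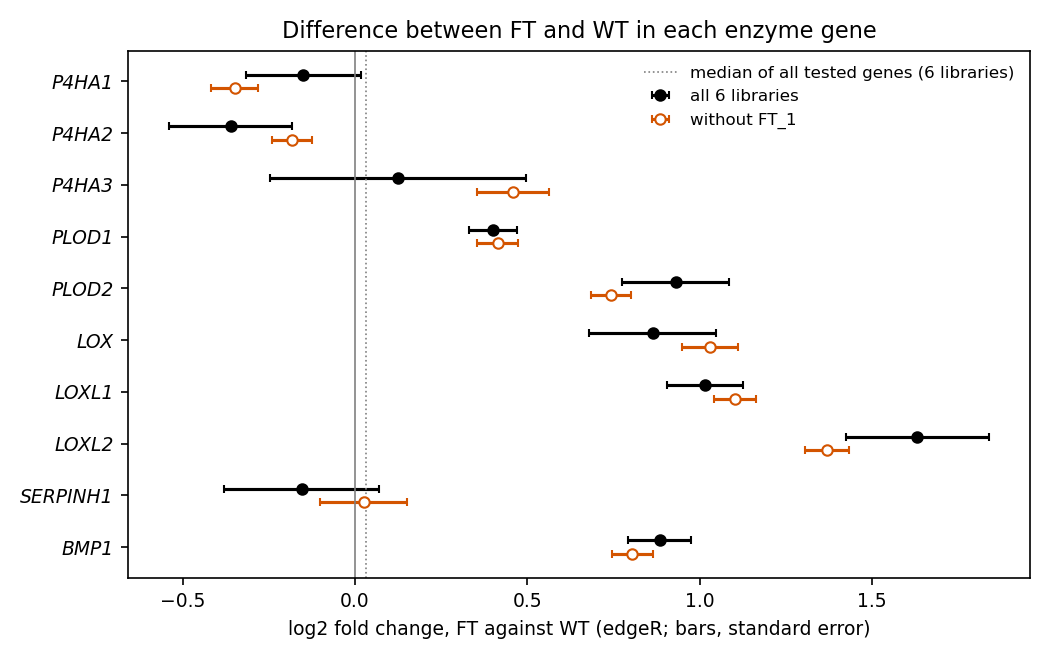
Log2 fold change of FT against WT from edgeR with a standard error derived from its test, for all 6 libraries (filled) and without FT_1 (open). The 6 called genes run from 0.40 (PLOD1) to 1.63 (LOXL2), and P4HA3 and SERPINH1 have standard errors of 0.37 and 0.22 that cross 0 with FT_1 included, as does that of P4HA1 (0.17).

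The alpha subunits of prolyl 4-hydroxylase carry the catalytic site and bind the prolines to be hydroxylated. P4HA1 (ENSBTAG00000032996, chromosome 28, 29067217–29167290, minus strand, coordinates as in the table, whose build is not named) had 91.8, 61.8 and 62.2 FPKM in FT_1 to FT_3 and 89.4, 94.0 and 83.2 FPKM in WT_1 to WT_3. FT_2 and FT_3 lay below all WT libraries, whereas FT_1 lay among them, so the groups overlapped. Its log2 fold change was −0.15 (SE 0.17) with an adjusted p of 0.51 in edgeR. Without FT_1 it was −0.35 (SE 0.07) with an adjusted p of 0.00153 in edgeR, a call that rests on leaving FT_1 out, since over the 16 settings the adjusted p ran from 0.00153 to 0.836.

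P4HA2 (ENSBTAG00000001116, chromosome 7, 22185073–22218084, plus strand) was the most abundant alpha subunit. It had 101, 149 and 151 FPKM in FT_1 to FT_3 and 189.9, 195 and 191 FPKM in WT_1 to WT_3. All FT libraries were below all WT libraries, and the WT values were close together (192 ± 2.72 FPKM, SD, n = 3) while the FT values were spread by FT_1 (134 ± 28.5 FPKM, SD, n = 3). In edgeR the log2 fold change was −0.36 (SE 0.18) and the adjusted p 0.16, which did not pass. It passed as lower in limma on log2(FPKM + 1), which does not rescale between libraries (log2 fold change −0.54, adjusted p = 0.0424), and in edgeR without FT_1 (−0.18, adjusted p = 0.0194), within a range of 0.0194 to 0.299 over all settings.

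P4HA3 (ENSBTAG00000006579, chromosome 15, 53640849–53681795, minus strand), the third alpha subunit, was the lowest of the 10 genes in both groups. Its level was 12.8, 32.8 and 32.7 FPKM in FT_1 to FT_3 and 25.3, 24.1 and 31.0 FPKM in WT_1 to WT_3. FT_2 and FT_3 were above the WT libraries and FT_1 was below them, at 0.39 of the mean of FT_2 and FT_3. A log2 fold change of 0.13 (SE 0.37) did not pass (adjusted p = 0.81, edgeR). Without FT_1 it was 0.46 (SE 0.10, adjusted p = 0.00358, edgeR), and it was −0.07 without FT_2 and −0.08 without FT_3. The adjusted p ranged from 0.00358 to 0.984 over the settings.

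Summed over the 3 alpha subunits, the level was 205, 244 and 246 FPKM in FT_1 to FT_3 and 305, 313 and 305 FPKM in WT_1 to WT_3. Each FT sum was below each WT sum, on the deposited scale with no further scaling, and the ratio of the group means was 0.75 (0.80 without FT_1). P4HA2 made up the larger part of this gap.

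The lysyl hydroxylases of the list were both called higher in FT cells. PLOD1 (ENSBTAG00000002052, chromosome 16, 41718717–41748319, minus strand), which hydroxylates lysines of the collagen helix, had 80.8, 82.7 and 79.7 FPKM in FT_1 to FT_3 and 67.7, 68.0 and 69.96 FPKM in WT_1 to WT_3. The groups did not overlap, and FT_1 lay between FT_2 and FT_3. Its log2 fold change was 0.40 (SE 0.07, 1.32-fold, adjusted p = 0.00725, edgeR), and 0.41 without FT_1 (adjusted p = 0.000201, with a range of 1.93e-07 to 0.0487 over the settings).

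PLOD2 (ENSBTAG00000007331, chromosome 1, 122349984–122471157, plus strand) hydroxylates lysines of the telopeptides, the chain ends from which one class of crosslinks forms. It was at 101.5, 70.5 and 69.5 FPKM in FT_1 to FT_3, against 47.5, 47.6 and 46.0 FPKM in WT_1 to WT_3. Every FT library was above every WT library, and FT_1 was the highest, at 1.45 times the mean of FT_2 and FT_3. In edgeR the log2 fold change was 0.93 (SE 0.15, 1.91-fold, adjusted p = 0.00598). Without FT_1 the value was 0.74 (SE 0.06, 1.67-fold, adjusted p = 3.86e-06, edgeR), and over the settings the adjusted p stayed between 1.72e-06 and 0.0347.

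The crosslinking oxidases LOX, LOXL1 and LOXL2 were all called higher. LOX (ENSBTAG00000012994, chromosome 7, 31754829–31767397, plus strand), the lysyl oxidase of fibrillar collagen and elastin, had 242.5, 344 and 359.9 FPKM in FT_1 to FT_3 and 202, 174 and 206 FPKM in WT_1 to WT_3. The groups did not overlap, but FT_1 was closer to the highest WT library than to FT_2. In edgeR the difference on the log2 scale was 0.86 (SE 0.18, 1.82-fold, adjusted p = 0.0139) and 1.03 without FT_1 (SE 0.08, 2.04-fold, adjusted p = 3.86e-06). The call was lost in edgeR without WT_1 (0.89, adjusted p = 0.0567) and without WT_2 (0.79, adjusted p = 0.0643), the latter the highest of the 16 settings.

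LOXL1 (ENSBTAG00000009086, chromosome 21, 34663151–34687592, minus strand), a lysyl oxidase known for its part in elastic fibres, had 213, 263 and 243 FPKM in FT_1 to FT_3 and 132, 136 and 129 FPKM in WT_1 to WT_3. All FT values were above all WT values, with FT_1 the lowest of the FT libraries. A log2 fold change of 1.02 (SE 0.11, 2.02-fold, adjusted p = 0.00168, edgeR) lay just above the study's threshold of 1, and it was 0.85 in limma on log2(FPKM + 1). Without FT_1 it was 1.10 (SE 0.06, adjusted p = 4.54e-07, edgeR), and the highest adjusted p of any setting was 0.0166.

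LOXL2 (ENSBTAG00000006214, chromosome 8, 70414275–70527527, minus strand), a lysyl oxidase that also acts on basement membrane collagen, had the largest difference of the 10 genes. It was at 273, 162 and 172 FPKM in FT_1 to FT_3 and at 72.3, 70.5 and 75.2 FPKM in WT_1 to WT_3. The groups did not overlap, and FT_1 had 1.64 times the mean of FT_2 and FT_3. The log2 fold change was 1.63 (SE 0.21, 3.10-fold, adjusted p = 0.00261, edgeR), and 88.7% of tested genes had a smaller one in size. Without FT_1 it was 1.37 (SE 0.06, 2.59-fold, adjusted p = 1.70e-07, edgeR), and the adjusted p was at most 0.0203 under any setting.

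FT_1 thus did not move the crosslinking genes in one direction: LOX and LOXL1 were lowest in FT_1 among the FT libraries, whereas LOXL2 and PLOD2 were highest there. The summed level of LOX and LOXL1 to LOXL4 was 783, 814 and 822 FPKM in FT_1 to FT_3 and 467, 432 and 476 FPKM in WT_1 to WT_3. The ratio of the group means was 1.76, and 1.79 without FT_1.

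SERPINH1 (ENSBTAG00000001027, chromosome 15, 54737997–54748417, plus strand) encodes HSP47, a chaperone that binds procollagen. It was the most abundant of the 10 genes in both groups, with 304, 412 and 501 FPKM in FT_1 to FT_3 and 522, 422 and 572 FPKM in WT_1 to WT_3. The groups overlapped, and the spread within each was wide (406 ± 99.1 FPKM in FT and 505 ± 76.2 FPKM in WT cells, SD, n = 3). Its log2 fold change was −0.15 (SE 0.22, adjusted p = 0.62, edgeR) and 0.03 without FT_1 (SE 0.13, adjusted p = 0.88), so its sign turned with FT_1. It was called under none of the 16 settings, where the adjusted p was between 0.25 and 0.89.

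BMP1 (ENSBTAG00000000917, chromosome 8, 69478799–69526082, plus strand), the C-proteinase of procollagen, had 66.7, 55.8 and 55.2 FPKM in FT_1 to FT_3 and 36.1, 35.0 and 36.3 FPKM in WT_1 to WT_3. All FT libraries exceeded all WT libraries, with FT_1 the highest. On the log2 scale the difference was 0.88 (SE 0.09, 1.85-fold, adjusted p = 0.0015, edgeR), and it was 0.80 without FT_1 (adjusted p = 2.78e-06, edgeR), with an adjusted p of at most 0.0163 under any setting.

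The order of the levels differed between groups. In WT cells it ran SERPINH1, LOX, P4HA2, LOXL1, P4HA1, LOXL2, PLOD1, PLOD2, BMP1 and P4HA3 from the highest mean FPKM to the lowest, and of neighbours in this order only LOX (194 ± 17.6 FPKM) and P4HA2 (192 ± 2.72 FPKM) overlapped in their libraries. In FT cells it ran SERPINH1, LOX, LOXL1, LOXL2, P4HA2, PLOD1, PLOD2, P4HA1, BMP1 and P4HA3. There the 4 highest genes overlapped with their neighbours, as did PLOD1 with PLOD2, PLOD2 with P4HA1 and P4HA1 with BMP1, whereas LOXL2 and P4HA2, P4HA2 and PLOD1, and BMP1 and P4HA3 did not. LOXL2 stood at position 6 in WT and 4 in FT cells, and P4HA2 at 3 and 5.

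All 10 genes were well covered, with 20073 counts for P4HA3, the fewest, and 365646 for SERPINH1 over the 6 libraries. A row with no symbol on the opposite strand overlapped P4HA1 and held 31 counts, against 95993 for P4HA1. The other 9 members overlapped no row of the table. Whether the authors counted by strand is not given in the sources used here.

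Shares within a family do not depend on how libraries are scaled. Exact two-sided permutation tests of 3 libraries against 3 cannot go below p = 0.10, so no share could pass, and p was adjusted over the 11 shares. Among the alpha subunits, P4HA2 made up 49.1%, 61.2% and 61.4% of the summed FPKM in FT_1 to FT_3 and 62.3%, 62.3% and 62.6% in WT_1 to WT_3. Its share was lower in each FT library, but FT_2 and FT_3 lay close to WT, and with shares of raw counts in place of FPKM the groups overlapped. The mean difference was −5.17 percentage points (exact permutation p = 0.10, adjusted 0.183) and −1.09 without FT_1. P4HA1 made up 44.7%, 25.3% and 25.3% in FT_1 to FT_3 and 29.3%, 30.0% and 27.2% in WT_1 to WT_3, a difference of 2.90 points with FT_1 and −3.56 without it. P4HA3 made up 6.23%, 13.4% and 13.3% in FT_1 to FT_3 and 8.32%, 7.69% and 10.2% in WT_1 to WT_3, a difference of 2.27 points with FT_1 and 4.64 without it.

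Among the lysyl hydroxylases, which include PLOD3, the share of PLOD2 was 40.6%, 33.6% and 33.6% in FT_1 to FT_3 and 28.8%, 28.3% and 27.3% in WT_1 to WT_3. It was higher in each FT library, and FT_1 was the highest. The difference was 7.77 percentage points (exact permutation p = 0.10, adjusted 0.183) and 5.44 without FT_1. The shares of PLOD1 (−4.27 points, −2.06 without FT_1) and PLOD3 (−3.50 points, −3.38 without FT_1) were lower in every FT library, although the levels of both genes were called higher. PLOD3 was at 67.8, 56.9 and 57.6 FPKM in FT_1 to FT_3 and 49.6, 52.6 and 52.5 FPKM in WT_1 to WT_3 (log2 fold change 0.39, adjusted p = 0.0175, edgeR, and 0.32 without FT_1). Its call was lost with library totals alone (0.24).

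Among the lysyl oxidases, LOXL2 made up 34.9%, 19.9% and 20.9% in FT_1 to FT_3 and 15.5%, 16.3% and 15.8% in WT_1 to WT_3. LOXL4 made up 3.70%, 4.68% and 5.14% in FT_1 to FT_3 and 9.97%, 9.03% and 10.6% in WT_1 to WT_3. The groups overlapped for neither gene, LOXL2 taking more of the sum in FT cells (9.35 points, 4.52 without FT_1) and LOXL4 less (−5.35 points, −4.94 without FT_1), each with an exact permutation p of 0.10 (adjusted 0.183). The share of LOX was 31.0%, 42.3% and 43.8% in FT_1 to FT_3 and 43.2%, 40.2% and 43.4% in WT_1 to WT_3, and its difference of −3.26 points became 0.76 without FT_1. LOXL1 differed by 0.72 points (1.93 without FT_1). LOXL3 made up 3.20%, 0.80% and 0.73% in FT_1 to FT_3 and 3.06%, 2.91% and 3.13% in WT_1 to WT_3, so that its difference was −1.46 points with FT_1 and −2.27 without it.

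**Figure D3:**
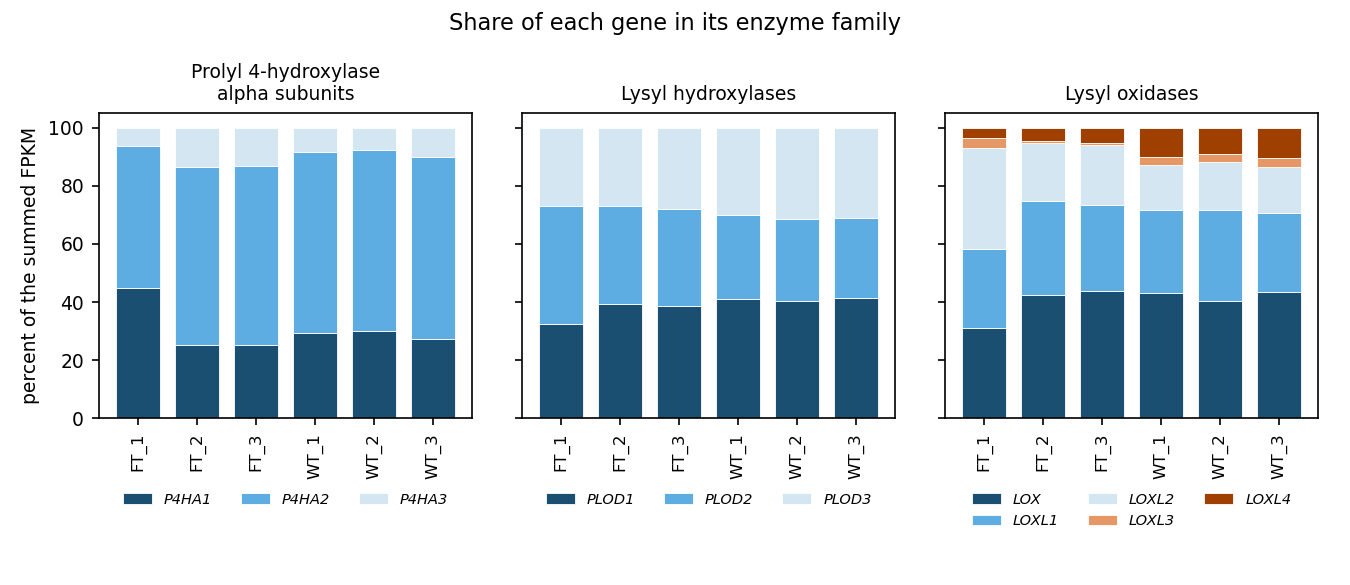
Percent of the summed FPKM of each enzyme family that each gene makes up, 1 stacked bar per library, for the prolyl 4-hydroxylase alpha subunits, the lysyl hydroxylases and the lysyl oxidases. LOXL2 takes 19.9–34.9% in FT against 15.5–16.3% in WT cells, and FT_1 differs from FT_2 and FT_3 in all 3 families.

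The enzymes were also set against the fibrillar collagens of the same library, as the log2 ratio of the enzyme's FPKM to the summed FPKM of COL1A1, COL1A2 and COL3A1. That sum was 2524, 5667 and 5628 FPKM in FT_1 to FT_3 and 5811, 5395 and 6087 FPKM in WT_1 to WT_3. FT_1 had less than any other library, and all ratios of FT_1 except that of P4HA3 were above those of FT_2 and FT_3. Among the FT libraries, the FPKM of P4HA1, PLOD2, LOXL2 and BMP1 was itself highest in FT_1, and that of the other enzymes was not.

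LOX amounted to 9.61%, 6.08% and 6.40% of the collagen sum in FT_1 to FT_3 and to 3.47%, 3.22% and 3.39% in WT_1 to WT_3. LOXL2 amounted to 10.8%, 2.86% and 3.05% in FT_1 to FT_3 and to 1.24%, 1.31% and 1.23% in WT_1 to WT_3. Both genes separated the groups, FT being higher. The log2 ratio differed by 1.10 for LOX (0.89 without FT_1) and by 1.85 for LOXL2 (1.23 without FT_1).

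The ratios of LOXL1 (1.27), PLOD2 (1.17), BMP1 (1.14) and PLOD1 (0.66) to the collagen sum were likewise higher in FT cells without overlap, by these log2 differences. Without FT_1 the differences were 0.96, 0.60, 0.66 and 0.27. Each of these 6 genes reached the smallest exact permutation p of 0.10 (adjusted over 10 genes 0.167), which is above 0.05. Set against COL1A1 alone, PLOD1 overlapped between groups (a difference of 0.53, exact permutation p = 0.30), whereas the other 5 still did not. The ratios of P4HA1 (0.09), P4HA2 (−0.13), P4HA3 (0.26) and SERPINH1 (0.08) overlapped between groups, and without FT_1 these differences were −0.49, −0.33, 0.32 and −0.11. P4HA1 and P4HA2 then separated the groups, FT being lower (exact permutation p = 0.10 for each). P4HA3 then separated them as well, FT being higher (exact permutation p = 0.20).

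**Figure D4:**
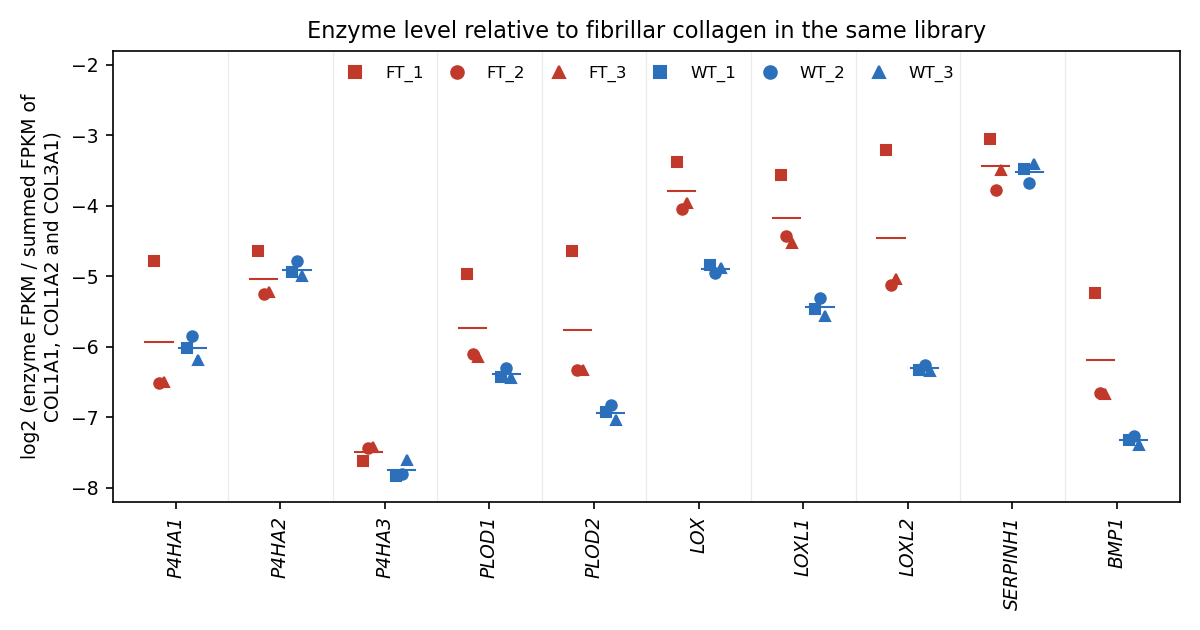
Log2 ratio of each enzyme's FPKM to the summed FPKM of COL1A1, COL1A2 and COL3A1 in the same library, 1 point per library (red, FT; blue, WT), with lines at the group means. FT_1 lies above the other FT libraries in 9 of 10 genes, and LOX, LOXL1, LOXL2, PLOD1, PLOD2 and BMP1 separate the groups.

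Some members are neighbours in the genome, a grouping made after their values were seen. LOXL2 and BMP1 lie 888 kb apart on chromosome 8, and both were called higher. Of 17 genes between them 13 were tested, and 2 were called, each as higher, where 20.1% of all tested genes were called higher and 18.9% lower. P4HA3 and SERPINH1 lie 1056 kb apart on chromosome 15, neither was called, and of 12 tested genes between them 1 was called higher and 3 lower.

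The genes whose profile over the 6 libraries was most like a member's were found by the Euclidean distance between log2 counts, scaled to library size and centred per gene. For LOX they were STON1 (distance 0.0655), GLMP (0.131) and KIAA1217 (0.144). For PLOD2 they were TAB2 (0.0659), ERCC1 (0.0675) and TPT1 (0.0878), and for SERPINH1 they were LOXL4 (0.143), ZKSCAN4 (0.173) and MYOF (0.179). STON1, at 12.9, 18.4 and 18.2 FPKM in FT_1 to FT_3 and 10.6, 9.10 and 10.7 FPKM in WT_1 to WT_3, shows the pattern of LOX, with FT_1 between the groups.

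Of the partners in hydroxylation and glycosylation, 9 of 10 genes were tested, 5 were called higher, 1 lower and 3 neither (all tested genes 20.1% higher and 18.9% lower), with 0.39 as their median log2 fold change (0.03 over all tested genes). With library totals alone this median was 0.24, and without FT_1, where all 10 genes were tested, 0.45. Every gene named from this and the next 5 lists as called kept its call and direction without FT_1. P3H3 and P3H4, of the prolyl 3-hydroxylase family, had log2 fold changes of 0.60 (adjusted p = 0.0026, 0.59 without FT_1) and 0.72 (adjusted p = 0.00315, 0.69 without FT_1) in edgeR. COLGALT1, which adds galactose to hydroxylysine, was at 25.6, 33.2 and 35.1 FPKM in FT_1 to FT_3 and 17.0, 8.50 and 15.5 FPKM in WT_1 to WT_3 (log2 fold change 1.36, adjusted p = 0.0135, edgeR, and 1.49 without FT_1). The FT values were above the WT values in each of these genes.

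PPIB, a prolyl isomerase of the endoplasmic reticulum, was at 434, 419 and 384 FPKM in FT_1 to FT_3 and 597, 622 and 588 FPKM in WT_1 to WT_3 and was called lower (−0.39, adjusted p = 0.0133, edgeR, and −0.42 without FT_1). P4HB, the beta subunit that pairs with the P4HA proteins, was at 339.7, 332 and 326 FPKM in FT_1 to FT_3 and 439, 447 and 419 FPKM in WT_1 to WT_3. Its FT libraries were all below its WT libraries, but with a log2 fold change of −0.23 it was not called (adjusted p = 0.0793, edgeR). CRTAP, which forms a complex with PPIB and prolyl 3-hydroxylase, was not called either (−0.32, adjusted p = 0.0665, edgeR). Without FT_1 both were called lower, P4HB at −0.23 and CRTAP at −0.44, and with library totals alone at −0.38 and −0.47. P3H2 stood at 15.1 FPKM in FT_1 and at 0.17–0.50 FPKM in the other 5 libraries. Without FT_1, 6 of 10 tested genes of the list were called higher and 3 lower (all tested genes 30.6% and 31.5%). The 6 included COLGALT2, untested with all libraries and at 0.19 FPKM or less, and P3H2 was not called. The counts with library totals alone were 3 and 3 (all tested genes 15.2% and 25.2%).

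Of the genes for procollagen folding and export, all 22 in the table were tested, 2 were called higher and 6 lower (all tested genes 20.1% and 18.9%), with a median of −0.18 (−0.22 without FT_1, −0.33 with library totals alone). HSPA5, the main chaperone of the endoplasmic reticulum, had 357, 281 and 278 FPKM in FT_1 to FT_3 and 556, 588 and 589 FPKM in WT_1 to WT_3 (−0.76, adjusted p = 0.0053, edgeR, and −0.88 without FT_1). HSP90B1 (−0.58, adjusted p = 0.00859, −0.61 without FT_1), another chaperone, and SEC13 (−0.46, adjusted p = 0.00525, −0.50 without FT_1), a coat protein of export vesicles, were also lower in edgeR. In each of these 3 genes all FT libraries were below all WT libraries, whereas the groups overlapped for SERPINH1.

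FKBP10, an isomerase that acts with lysyl hydroxylase on telopeptides, was at 159.6, 164 and 159 FPKM in FT_1 to FT_3 and 132, 137 and 141 FPKM in WT_1 to WT_3 and was called higher (0.40, adjusted p = 0.0102, edgeR, and 0.41 without FT_1), as was MIA3, which loads procollagen into vesicles (0.37, adjusted p = 0.0145, edgeR, and 0.33 without FT_1). With library totals alone the call of MIA3 was lost (0.22). The abundant genes PDIA3 (−0.27), PDIA6 (−0.21) and FKBP9 (0.21) were not called, and without FT_1 PDIA3 (−0.26) and PDIA6 (−0.17) were called lower but FKBP9 (0.11) was not called. With library totals alone PDIA3 (−0.42) and PDIA6 (−0.36) were likewise called lower. Without FT_1, 5 genes of the list were called higher and 12 lower, where 30.6% and 31.5% of all tested genes were. With library totals alone the counts were 1 and 10, where 15.2% of all tested genes were called higher and 25.2% lower. MIA2 was not analysed here.

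Of the genes for propeptide processing, 10 of 11 in the table were tested, 4 were called higher and 0 lower (all tested genes 20.1% and 18.9%), with a median of 0.96 (0.95 without FT_1, 0.81 with library totals alone). The count of 0 was the same at an unadjusted p under 0.05 in edgeR and in DESeq2 and limma, for this list and for the collagen chains and oxygen sensing genes that follow. PCOLCE, an enhancer of BMP1, was at 337, 711 and 644 FPKM in FT_1 to FT_3 and 229, 212 and 239 FPKM in WT_1 to WT_3 (1.48, adjusted p = 0.0107, edgeR, and 1.75 without FT_1). FURIN, a protease that activates BMP1 among many substrates, was at 32.9, 30.8 and 31.8 FPKM in FT_1 to FT_3 and 19.0, 18.7 and 16.4 FPKM in WT_1 to WT_3 (0.98, adjusted p = 0.00103, edgeR, and 0.97 without FT_1). Both were above WT in every FT library, as was BMP1 itself.

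ADAMTS14, a procollagen N-proteinase, was also called higher (1.51, adjusted p = 0.00971, edgeR, and 1.25 without FT_1) at 1.03 FPKM or less. ADAMTS2, the most abundant N-proteinase gene of the list, was at 21.9, 69.1 and 70.5 FPKM in FT_1 to FT_3 and 41.0, 39.4 and 43.5 FPKM in WT_1 to WT_3, with FT_1 below and FT_2 and FT_3 above WT. It was not called (0.55, adjusted p = 0.36, edgeR) and was called at 0.93 without FT_1. PCOLCE2 (−0.19) and PCSK6 (0.96) were not called, but without FT_1 PCOLCE2 was called lower at −0.40 and PCSK6 higher at 0.45. The list had 7 higher and 1 lower without FT_1, beside 30.6% and 31.5% of all tested genes. TLL1 and MEP1B were not analysed here.

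Of the other crosslinking enzymes and copper supply, 9 of 10 genes in the table were tested, 2 were called higher and 2 lower (all tested genes 20.1% and 18.9%), with a median of −0.01 (0.09 without FT_1, −0.14 with library totals alone). The copper importer SLC31A1 was at 19.6, 21.8 and 25.3 FPKM in FT_1 to FT_3 and 41.4, 37.6 and 39.1 FPKM in WT_1 to WT_3 (−0.66, adjusted p = 0.00854, edgeR, and −0.57 without FT_1). The copper chaperone ATOX1 was at 24.8, 14.3 and 17.6 FPKM in FT_1 to FT_3 and 42.2, 44.6 and 33.2 FPKM in WT_1 to WT_3 (−0.92, adjusted p = 0.0229, edgeR, and −1.15 without FT_1). Lysyl oxidases need copper, and both genes were lower in every FT library while LOX, LOXL1 and LOXL2 were higher.

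TGM3, a transglutaminase (3.75, adjusted p = 0.00705, 2.86 without FT_1), and MFAP4 (2.87, adjusted p = 0.00146, 2.85 without FT_1), a microfibril protein, were called higher in edgeR at 2.59 FPKM or less. FBLN5 was at 88.7 FPKM in FT_1 and 214 and 217 FPKM in FT_2 and FT_3, with 110.2, 111 and 119.8 FPKM in WT_1 to WT_3. It was not called (0.77), and neither were EFEMP2 (−0.01) and LOXL4 (−0.15). Without FT_1 FBLN5 was called higher at 1.09, while EFEMP2 (0.09) and LOXL4 (0.00) were not called. LOXL3, chosen after its values were seen, was at 25.0, 6.51 and 6.02 FPKM in FT_1 to FT_3 and 14.3, 12.6 and 14.9 FPKM in WT_1 to WT_3. It was not called, and without FT_1 it was called lower at −0.98. Without FT_1, 3 genes of this list were called in each direction, beside 30.6% higher and 31.5% lower of all tested genes. ATP7A was not analysed here.

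Of the fibrillar collagen chains, the substrates of these enzymes, 8 of 10 genes in the table were tested, 3 were called higher and 0 lower (all tested genes 20.1% and 18.9%). Their median was 0.16, and it was 0.44 without FT_1 and −0.00073 with library totals alone, where the medians of all tested genes were 0.03, −0.02 and −0.12. COL11A1 was at 147, 143 and 136 FPKM in FT_1 to FT_3 and 28.2, 26.9 and 33.9 FPKM in WT_1 to WT_3 (2.42, adjusted p = 0.000523, edgeR, and 2.40 without FT_1). COL5A1 (0.79, adjusted p = 0.00868, 0.93 without FT_1) and COL5A2 (0.61, adjusted p = 0.0074, 0.60 without FT_1) were also called higher in edgeR. These minor chains are known to regulate fibril diameter.

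The major chains were not called. COL1A1 was at 914, 2611 and 2689 FPKM in FT_1 to FT_3 and at 2288, 2212 and 2331 FPKM in WT_1 to WT_3 (0.03, adjusted p = 0.96, edgeR), and COL1A2 (−0.25) and COL3A1 (−0.38) were not called either. Without FT_1, 6 chains were called higher and 0 lower, beside 30.6% and 31.5% of all tested genes. COL1A1 was among them (0.39), whereas COL1A2 (−0.04) and COL3A1 (−0.06) were not. COL24A1 was not analysed here.

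Of the genes for cofactor supply and oxygen sensing, 10 of 10 were tested, 2 were called higher and 0 lower (all tested genes 20.1% and 18.9%). Their median of 0.24 was 0.08 without FT_1 and 0.09 with library totals alone. EPAS1, a hypoxia-inducible factor, was at 177, 92.7 and 104 FPKM in FT_1 to FT_3 and 63.7, 51.7 and 64.0 FPKM in WT_1 to WT_3 (1.21, adjusted p = 0.0137, edgeR, and 0.89 without FT_1), and EGLN2, an oxygen-sensing prolyl hydroxylase, was 0.49 higher (adjusted p = 0.00405, edgeR, and 0.46 without FT_1). HIF1A, known to induce P4HA1, PLOD2 and LOX in low oxygen, was at 202 FPKM in FT_1, 49.8 and 54.4 FPKM in FT_2 and FT_3 and 60.3, 57.5 and 57.9 FPKM in WT_1 to WT_3. It stood out in FT_1 and was not called (0.95, adjusted p = 0.22, edgeR, and 0.00 without FT_1). Among the FT libraries, P4HA1 and PLOD2 were highest in FT_1 and LOX was lowest there, and a link to HIF1A was not tested. EGLN3 (0.04) and HIF1AN (0.18) were not called. Without FT_1 EGLN3 was called lower at −0.36, so its direction and call turned on FT_1, while HIF1AN (0.15) was not called. Without FT_1, 3 genes of the list were called higher and 1 lower, beside 30.6% and 31.5% of all tested genes.

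**Figure D5:**
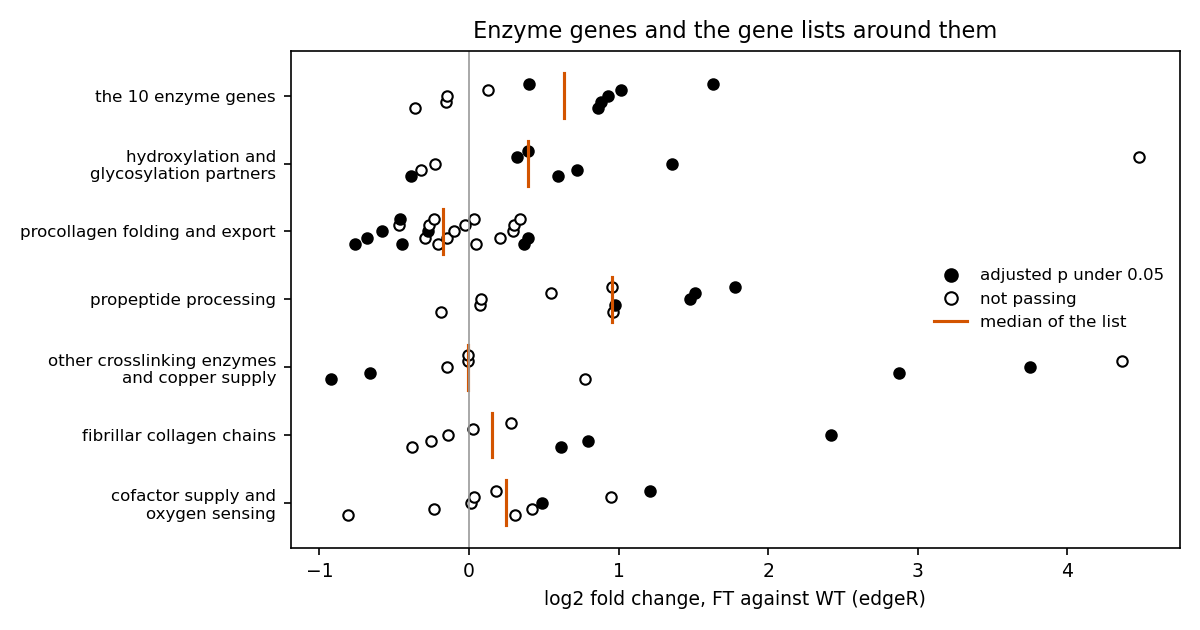
Log2 fold change of FT against WT from edgeR for each tested gene of the 10 enzymes and of the 6 lists around them, filled where the adjusted p is under 0.05, with a bar at the median of each list. The medians run from −0.18 (folding and export) to 0.96 (propeptide processing), and that of the 10 enzymes is 0.63.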

How the data were processed

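Per the study's methods, HISAT aligned the paired-end reads, Perl scripts joined the transcripts, and StringTie and edgeR gave the expression values. The submitters' processing notes list HISAT2 2.0, StringTie 1.3.0 and Bowtie 0.12.2 together with a mouse build, while the table carries cattle gene IDs, and the cattle build is not given in the sources used here. Raw counts per gene were deposited for each library, and the FPKM values the authors deposited beside them are fragments scaled by gene length and library total. Members and gene lists were chosen with earlier results of these data known.

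Counts were fitted with edgeR 4.0.16 (glmQLFit, TMM scaling, filterByExpr) in R 4.3.3. The SE given with an edgeR log2 fold change is its size divided by the square root of the F statistic of the test. Alternatives were DESeq2 1.42.0, limma 3.58.1 on log2(FPKM + 1) or log2(FPKM + 0.1) for genes with a mean of at least 0.5 FPKM, RLE, upper-quartile and library-total scaling, no filter, a replicate block and leaving out each library. The code was tested on simulated counts. Permutation tests used Python 3.11.15. Fold changes come from counts in edgeR and DESeq2 and from FPKM in limma. FPKM was compared between genes and, for overlap, family sums, shares and ratios to collagen, between libraries.

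All 10 members are named. From each list up to 3 called genes per direction with the smallest p and up to 3 uncalled genes with the highest mean FPKM are named, and from each marker list the most abundant gene and every marker at 0 in all libraries (none was). Pattern likeness covers the 3 nearest tested genes with a symbol. Other genes are named where a limit required it. No sequences were used.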

Additional observations from a re-analysis of the deposited data

How the results depend on the processing

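The 6 called enzyme genes kept their direction under all 15 alternatives. PLOD1, PLOD2, LOXL1, LOXL2 and BMP1 kept their call in all of them, and LOX lost it without WT_1 or WT_2. Where a direction or call changed, the cause was not tested.

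The log2 fold change of P4HA2 passed as lower in limma with a pseudocount of 1 (−0.54) and 0.1 (−0.55). This makes 1 member called lower there, beside 29.2% and 28.8% of all tested genes. P4HA2 did not pass in limma without the filter (−0.54, adjusted p = 0.0604, with 0.0194 to 0.299 over all alternatives). P4HA3 was −0.033 with library totals alone, and −0.14 in limma with and without the filter and −0.15 with the pseudocount 0.1. With COL1A1 alone as the substrate, the difference in log2 ratio was −0.036 for P4HA1 and −0.043 for SERPINH1, and PLOD1 (0.53) no longer separated the groups.

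limma without the filter called 1744 genes higher. The study's threshold was passed by 2586 genes in edgeR, and by 1488 in limma with and 1479 without the filter. Just 1 member passed it with library totals alone, with upper-quartile scaling, and in limma at either pseudocount or without the filter. Of all tested genes, 19.7% passed it with library totals alone and 19.3% with upper-quartile scaling. In limma 12.1% passed it with the pseudocount 1, 18.0% with 0.1 and 8.38% without the filter.

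With library totals alone, 3 partners in hydroxylation were called higher and 3 lower, and 1 gene of folding and export was called higher and 10 lower. Higher calls were then 37.6% of all calls, against 51.6% with TMM, and 15.2% of all tested genes were called higher and 25.2% lower.

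Leaving out 1 library at a time gave 3047–8552 called genes, 1516–4215 higher and 1531–4337 lower, against 5261, 2714 and 2547 with all 6. The highest counts came without FT_1. Between 0 and 2 members were called lower, beside 11.1–31.5% of all tested genes. Between 1 and 3 members passed the study's threshold, beside 15.7–23.3% of all tested genes. The log2 fold change ran from −0.35 to −0.056 for P4HA1, from −0.47 to −0.18 for P4HA2, from −0.081 to 0.46 for P4HA3, from 0.75 to 1.03 for LOX and from −0.35 to 0.025 for SERPINH1.

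The difference in share ran from −3.56 to 6.14 percentage points for P4HA1, from −5.64 to 0.76 for LOX and from −0.58 to 1.99 for LOXL1. With shares of raw counts the groups overlapped for P4HA2 (−4.85 points, exact permutation p = 0.60). The difference in log2 ratio to collagen ran from −0.49 to 0.38 for P4HA1, with −0.00039 without WT_3, and from −0.11 to 0.25 for SERPINH1.

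Without FT_1, 3 partners in hydroxylation were called lower, 5 genes of folding and export were called higher and 12 lower, 7 genes of propeptide processing higher and 1 lower, 6 collagen chains higher and 1 gene of oxygen sensing lower. Over all tested genes, 30.6% were then called higher and 31.5% lower. Non-overlap without FT_1, an alternative chosen after seeing the data, gave 2 members lower in FT cells, beside 47.6% of all tested genes.

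The sources used here do not say that replicate numbers pair the fetuses. The correlation of same-numbered libraries around their group means was −0.001, −0.02 and 0.018. Because FT_1 lay far from FT_2 and FT_3, this check could hardly show pairing and does not decide it. With the replicate block 3579 genes were called, and the same 6 members were called higher. The planned description of protein and promoter sequences was not run. With 3 fetuses per group, the permutation tests could not pass 0.05.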
